A study of Mus musculus with 16 samples.

Results

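The 39 genes described here are interferon-stimulated genes, selected by symbol from the 2 expression tables of a mouse study of the G-protein-coupled receptor kinase GRK2 in the hair follicle. All 39 had a row in the whole skin table of 55357 genes and in the stem cell table of 56953 genes. They comprise a type I group of 11 genes (the Ifit, Oas, Oasl and Mx genes), an interferon-gamma group of 9 genes (the Gbp genes, Iigp1, Igtp, Irgm1, Psmb8, Psmb9 and Tap1) and 19 other members. The study measured bulk RNA in 16 libraries of C57BL/6 mice. Whole back skin, from mice labelled as 8 months old, gave 5 control and 5 eKO libraries. Sorted hair follicle stem cells (HFSC), which are bulge cells positive for CD34 and α6-integrin, gave 3 control and 3 eKO libraries. The HFSC labels state 18 months and the series design text 8 months, so the age of these mice is not settled. The genotype is given as GRK2 eKO, which the labels do not spell out, and they name no promoter, Cre line, allele or control genotype beyond "Control". Sex, litter and preparation day are not recorded, and p-values therefore measure the spread between these libraries, which may be technical.

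Interferons are secreted proteins that cells release on meeting viruses or other danger signals. Type I interferons act through the receptor subunits Ifnar1 and Ifnar2 and the kinases Jak1 and Tyk2, and a complex that includes Stat2 and Irf9 binds the interferon-stimulated response element (ISRE). Interferon-gamma acts through Ifngr1 and Ifngr2 with Jak1 and Jak2, and its targets are known for the gamma-activated site (GAS). Many genes answer both signals, so the group names used here are conventional and not exclusive. Type I targets mostly restrict viral RNA, whereas typical interferon-gamma targets include GTPases against intracellular pathogens and the machinery of antigen presentation. Hair follicle stem cells reside in the bulge, a niche known for low display of antigen-presenting molecules.

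Values are the authors' normalised read counts, that is, reads per gene divided by 1 size factor per library, and are printed in the order of the replicate numbers. Depth was 8.21 M to 16.4 M recovered reads for a skin library and 6.43 M to 9.39 M for an HFSC library (M, mega). Grk2 itself overlapped between genotypes in both tables, at 104 to 122 in the eKO and 121 to 144 in the control HFSC libraries and at 979.7 to 1224 and 1099.7 to 1492 in skin. The genotype labels could not be checked from this gene-level value, because the deleted part of the gene is not stated. Markers of the sorted bulge cells were abundant, with a summed value of 199582 to 204442 in control and 203373 to 235869 in eKO HFSC. Krt15 alone held 112171 to 116724 of the control sums, so they say little of the other markers. At a limma adjusted p under 0.05, 3 of the 11 markers rose (Itga6, Krt5 and Krt14) and Lgr5 fell. Of all tested genes, 10.7% rose and 8.74% fell. Lgr5 averaged 7376 in control and 3833 in eKO HFSC, and Krt14 9680 and 23669. Igtp, an immunity-related GTPase, was listed at 0 in all 16 libraries. B2m, which nearly every cell uses, was also listed at 0 in all of them, so a listed 0 is not read as absence.

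In eKO HFSC, some interferon-stimulated genes of each group rose against control HFSC, among them Iigp1, Rtp4 and Oas1a, and the inhibitor Usp18 fell. Of the 39 members, 27 had a value of at least 10 in at least 3 of the 6 libraries and were tested. Of these, 11 rose and 1 fell at a limma adjusted p under 0.05, where 10.7% and 8.74% of all 13784 tested genes rose and fell. Libraries of the genotypes did not overlap for 16 tested members on the higher and 1 on the lower side, against 18.9% and 17.4% of all tested genes. Of the 27 tested members, 5 did not hold 10 in every control library, namely Ifit3, Oas1a, Oas3, Isg15 and Rtp4. They needed eKO libraries to reach the filter. No control library of Ifit3, Oas3 or Isg15 reached 10, so these had to differ to be tested. Oas1a reached it in control 2 (10.5) and Rtp4 in controls 1 and 2 (12 and 11.6). The 8 further members that rose held at least 10 in every control library. On the recovered reads, edgeR called 13 members higher and 1 lower (10.8% and 8.16% of all genes), and DESeq2 11 and 1 (9.5% and 7.31%).

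Markers of several other cell types differed between the genotypes in HFSC, in both directions. The 12 endothelial markers summed to 79.0 to 127 in the control and 1393 to 1501 in the eKO libraries. Of the 12, 10 were tested and 9 rose, where 10.7% of all tested genes rose. Among these 9, only Tek and Eng held at least 10 in every control library. The others needed eKO libraries to reach the filter. Vwf, Emcn and Cldn5 were at 0 in the controls, and Cldn5 and Egfl7 were at 0 in the eKO libraries. The 14 hair matrix and shaft markers summed to 208 to 242 in the control and 1523 to 1823 in the eKO libraries. The 7 markers of differentiated epidermis summed to 2549 to 4491 in the control and 16484 to 17360 in the eKO libraries. Krt1 and Krt10 made up most of these sums, with means of 1098 and 2033 in control and 9712.5 and 5632 in eKO. Of the 7, 6 were tested and 5 rose, where 10.7% of all tested genes rose. Lor went the other way, at 18.9 to 51.0 in control and 1.07 to 17.5 in eKO, without passing (limma adjusted p = 0.113). The 19 leukocyte markers summed to 99.7 to 115 in control and 42.6 to 146 in eKO libraries; 3 of them were tested, of which none rose and Lyz2 fell. Trdc and Cd8a were at 0 in all 6 libraries. Itgam was too, but it was also listed at 0 in every skin library, so its 0 carries no information. Ptprc averaged 14.9 in control and 16.6 in eKO. The 8 dermal fibroblast markers summed to 143 to 158 in the control and 90.5 to 134 in the eKO libraries. Of the 3 tested, Dcn rose, where 10.7% of all tested genes rose, and none fell. Dcn, at 0 to 2.99 in control and 19.7 to 28.8 in eKO, needed eKO libraries to reach the filter. Pdgfra, untested, averaged 11.7 in control and 0.37 in eKO. The 5 melanocyte markers summed to 191 to 254 and 142 to 174, and none of the 3 tested was called. The Y-linked markers summed to 2340 to 2476 in the control and 704 to 831 in the eKO libraries. The part of these cell types and of sex in the interferon-stimulated gene values was not tested, and a higher share of cells of a type cannot be told apart from more RNA per cell.

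**Figure D1:**
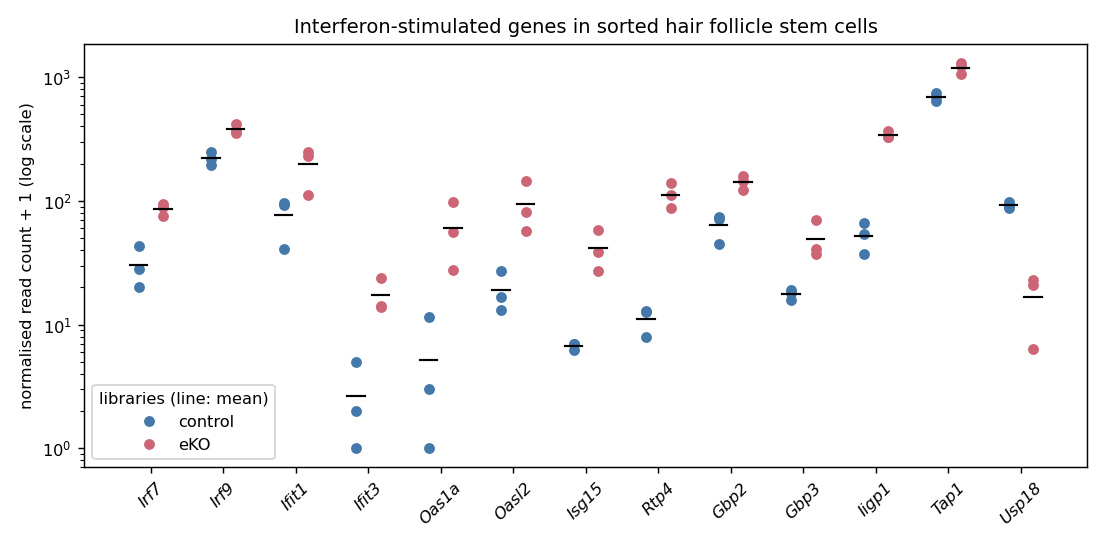
Normalised read count plus 1 (log axis) of 13 members in the 3 control and 3 eKO HFSC libraries, with each point a library and each line a group mean. The eKO points lie above the control points for 12 of the genes, and for Usp18 they lie below, at 5.33 to 22.0 against 86.8 to 96.0.

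Among the transcription factors that drive the response, Irf7 and Irf9 rose while Irf1 and Stat2 did not pass. Irf7, the factor that amplifies type I interferon production, stood at 26.9, 18.9 and 42.0 in the control libraries and 92.5, 87.7 and 74.6 in the eKO libraries. Every eKO library exceeded every control library, with a log2 change of 1.57 (SE 0.38, limma adjusted p = 0.0128). Irf9, the DNA-binding partner of Stat2, stood at 216, 249 and 195 in the control libraries and 369, 419 and 353 in the eKO libraries, a log2 change of 0.79 (SE 0.17, limma adjusted p = 0.0063). The ranges of Irf9 were also separate. Irf1, a factor induced chiefly by interferon-gamma, was at 137, 153 and 102 in the control libraries and 158, 123 and 219 in the eKO libraries, and Stat2 at 314, 259.8 and 242 in the control libraries and 190.3, 278 and 241 in the eKO libraries. The libraries overlapped for both, with log2 fold changes of 0.33 (limma adjusted p = 0.42) and -0.21 (limma adjusted p = 0.498).

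Of the 11 type I group genes, 6 were tested, 3 rose and none fell, where 10.7% and 8.74% of all tested genes rose and fell. Their median log2 fold change was 2.26, against -0.03 over all genes tested. Of these 6, Ifit3, Oas1a and Oas3 needed eKO libraries to reach the filter, and the median of the other 3 (Ifit1, Ifit2 and Oasl2) was 1.39. Ifit1, which binds viral RNA lacking host cap methylation, was at 94.7, 91.5 and 40.0 in the control libraries and 111, 229 and 249 in the eKO libraries, a log2 change of 1.39 (SE 0.38, limma adjusted p = 0.0224). The lowest eKO library, replicate 1, was only slightly above the highest control library. Oas1a makes the oligoadenylates that activate RNase L, and it stood at 1.99, 10.5 and 0 in the control libraries and 55.3, 96.5 and 26.6 in the eKO libraries. The control level was close to 0 in 2 of the libraries, and the fold change was correspondingly large, at a log2 change of 4.03 (SE 0.89, limma adjusted p = 0.00706). Oasl2, an Oas-like protein, was at 25.9, 15.8 and 12 in the control libraries and 80.4, 55.9 and 145 in the eKO libraries, a log2 change of 2.28 (SE 0.47, limma adjusted p = 0.00436). Ifit3, a partner of Ifit1, was at 0.997, 0 and 4.00 in the control libraries and 22.7, 13.2 and 12.8 in the eKO libraries, and did not pass (log2 fold change 2.95, limma adjusted p = 0.0507). Oas3, a large oligoadenylate synthetase, was at 3.99, 8.42 and 2.00 in the control libraries and 26.5, 35.1 and 13.8 in the eKO libraries, likewise without passing (log2 fold change 2.24, limma adjusted p = 0.0522). Libraries of Ifit2 overlapped, with a log2 change of 0.63 (limma adjusted p = 0.437). The call of Ifit1 did not hold without control 3 (adjusted p = 0.091), eKO 2 (0.0785) or eKO 3 (0.0974).

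The 5 untested type I genes had few reads. Ifit3b, Oas2, Oasl1 and Mx1 had no read in the 3 control libraries and 11, 13, 14 and 7 reads in the 3 eKO libraries. Their eKO values were 3.42-fold, 4.04-fold, 4.35-fold and 2.17-fold a floor of 3 reads over the control group. These ratios allow for counting error in the control group only, not in the few eKO reads, so they are not lower limits. For each gene, 1 or 2 of the 3 eKO libraries were at or near 0. Mx2, a GTPase relative of Mx1, was at 0, 1.05 and 10 in the control libraries and 6.07, 11.0 and 22.4 in the eKO libraries, and its ranges overlapped.

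Of the 9 interferon-gamma group genes, 8 were tested, 4 rose and none fell, where 10.7% and 8.74% of all tested genes rose and fell. The median log2 fold change of the 8 was 0.81. Iigp1, an immunity-related GTPase that acts at the vacuoles of intracellular pathogens, showed the clearest separation of the group. It stood at 52.9, 65.2 and 36.0 in the control libraries and 329, 369 and 328 in the eKO libraries. This was a 6.66-fold difference in means, a log2 change of 2.75 (SE 0.26, limma adjusted p = 1.28e-05). Tap1, a subunit of the transporter that loads peptides onto class I molecules, was at 747, 686 and 642 in the control libraries and 1227, 1296 and 1066 in the eKO libraries. The genotypes were separate and the change was smaller, a log2 change of 0.79 (SE 0.12, limma adjusted p = 6.07e-04). Gbp2, a guanylate-binding GTPase, was at 43.9, 73.6 and 71.0 in the control libraries and 158, 122 and 143 in the eKO libraries, a log2 change of 1.18 (SE 0.29, limma adjusted p = 0.0132). Its relative Gbp3 was at 18.0, 14.7 and 17 in the control libraries and 36.4, 39.5 and 69.2 in the eKO libraries, a log2 change of 1.44 (SE 0.46, limma adjusted p = 0.0454). Gbp7, also a guanylate-binding protein, was at 295, 262 and 268 in the control libraries and 293, 327 and 490.0 in the eKO libraries, and did not pass (log2 fold change 0.39, limma adjusted p = 0.193). Irgm1, a regulator of the other immunity-related GTPases, had a log2 change of 0.01 (limma adjusted p = 0.99), with eKO 1 at 381 and the other eKO libraries at 162 and 209.8. The immunoproteasome subunits Psmb8 and Psmb9 had log2 fold changes of 0.84 (limma adjusted p = 0.147) and 0.57 (limma adjusted p = 0.209). The call of Gbp3 was lost without control 1, 2 or 3 or without eKO 2 or 3, at limma adjusted p values of 0.104, 0.127, 0.101, 0.0564 and 0.15. The call of Gbp2 was lost without control 1 (limma adjusted p = 0.0622).

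Beyond these groups, Isg15 and Rtp4 rose and Usp18 fell. Isg15, a ubiquitin-like modifier, was at 5.98, 5.26 and 6.00 in the control libraries and 37.9, 26.3 and 57.5 in the eKO libraries, a log2 change of 2.56 (SE 0.59, limma adjusted p = 0.0091). Rtp4, a receptor transporter protein that is itself interferon-inducible, was at 12, 11.6 and 7 in the control libraries and 137, 86.6 and 111 in the eKO libraries, a log2 change of 3.34 (SE 0.43, limma adjusted p = 1.64e-04). Both had control values of 12 or less and separate genotypes. Usp18, which strips Isg15 from proteins and dampens type I receptor signalling, moved the other way. It stood at 86.8, 89.4 and 96.0 in the control libraries and 22.0, 19.7 and 5.33 in the eKO libraries, a log2 change of -2.67 (SE 0.51, limma adjusted p = 0.00293). The highest eKO library thus held less than the lowest control library. With Irf7 and Irf9, 4 of the 13 tested members outside the 2 groups rose and 1 fell, against 10.7% and 8.74% of all tested genes. The median log2 fold change of the 13 was 0.37. The call of Irf7 was lost without control 2 (limma adjusted p = 0.0573).

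The remaining tested members did not pass. Ifi27 and Ifih1, the latter a cytoplasmic sensor of double-stranded RNA, were higher in every eKO library than in every control library, with log2 fold changes of 0.37 (limma adjusted p = 0.131) and 0.47 (limma adjusted p = 0.113). Ddx58, a related RNA sensor, and Ifi35, Xaf1 and Parp14 lay between 0.17 and 0.37, all with overlapping libraries. Ifi44 was untested, with no read in the control libraries and 73 reads in the eKO libraries. Its eKO value was 22.7-fold the floor of 3 reads over the control group. By library it was uneven, at 26.5, 4.38 and 36.2. Rsad2, Bst2, Ifi27l2a, Dhx58 and Zbp1 were also untested, with values of 0 to 13.0 in control and 0 to 29.6 in eKO libraries. These include viral restriction factors (Rsad2 and Bst2) and nucleic acid sensors (Dhx58 and Zbp1).

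Promoter windows show how the 2 kinds of element are distributed among the members, most of which did not rise. RefSeq windows on GRCm38.p6, from 250 bases before to 50 after the start, were available for 28 of the 39 members. The ISRE core was searched as GAAA, any 2 bases and a further GAAA, and the GAS as TTC, any 3 bases and GAA. Both strands were read, and overlapping matches count separately. These members have 32 windows, since some have several starts. The ISRE core was present in 16 of the 32 windows, against 3.44% of all 32851 windows, and the GAS in 8 of the 32, against 8.3%. Counted by gene, with a match in any window, 16 of the 28 members held an ISRE core and 8 a GAS, against 3.99% and 9.55% of 27025 genes. In the type I group 5 of 8 members held an ISRE core, and in the interferon-gamma group also 5 of 8. Of the 9 members that rose in eKO HFSC and had a window, 5 held an ISRE core and 1 a GAS. This ISRE share is near the 16 of all 28 members with a window, whether or not they rose. A link of either element to the genotype effect was not tested. The windows of 4 of these members follow, 5′ to 3′ along the gene's strand, with matches in capitals. Oas1a and Isg15 are shown as members with an ISRE core, and Gbp2 and Tap1 as members of the interferon-gamma group that rose.
Oas1a (chr5:120907476-120907775, minus strand): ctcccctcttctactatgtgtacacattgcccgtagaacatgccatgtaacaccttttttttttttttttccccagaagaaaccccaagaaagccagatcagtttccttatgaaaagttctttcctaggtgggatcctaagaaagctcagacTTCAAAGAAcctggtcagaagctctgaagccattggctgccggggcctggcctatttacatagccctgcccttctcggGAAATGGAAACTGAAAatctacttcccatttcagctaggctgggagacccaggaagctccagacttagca
Isg15 (chr4:156200769-156201068, minus strand): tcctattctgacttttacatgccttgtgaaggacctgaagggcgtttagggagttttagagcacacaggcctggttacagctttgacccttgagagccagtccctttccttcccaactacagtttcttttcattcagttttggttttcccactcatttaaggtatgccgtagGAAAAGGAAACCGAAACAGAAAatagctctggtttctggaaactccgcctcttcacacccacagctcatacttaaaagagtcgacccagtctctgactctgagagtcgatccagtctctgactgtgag
Gbp2 (chr3:142620413-142620712, plus strand): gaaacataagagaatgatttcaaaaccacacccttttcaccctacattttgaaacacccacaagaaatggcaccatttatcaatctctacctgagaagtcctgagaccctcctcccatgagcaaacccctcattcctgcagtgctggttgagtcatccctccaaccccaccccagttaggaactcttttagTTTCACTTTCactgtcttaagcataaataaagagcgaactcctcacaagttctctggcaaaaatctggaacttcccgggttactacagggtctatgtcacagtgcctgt
Tap1 (chr17:34187306-34187605, plus strand): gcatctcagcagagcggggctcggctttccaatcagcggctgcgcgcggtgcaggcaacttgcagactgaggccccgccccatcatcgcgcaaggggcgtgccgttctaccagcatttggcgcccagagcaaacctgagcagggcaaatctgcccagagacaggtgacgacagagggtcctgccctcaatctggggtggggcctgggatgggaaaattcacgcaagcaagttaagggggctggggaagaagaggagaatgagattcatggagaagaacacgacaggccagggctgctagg
Positions count from the gene start. The 2 ISRE matches of Oas1a begin at -20 and -14 and its GAS match at -98. Isg15 holds 3 overlapping ISRE matches beginning at -78, -72 and -66. The Gbp2 match, at -59, is on the opposite strand and is therefore printed as its reverse complement. The Tap1 window holds neither motif, and these letters are only a description of a window.

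In whole skin, no member was called in either direction. Of the 38 tested members none passed the limma threshold, where 0.229% of 16589 genes rose and 0.145% fell, and edgeR (0.198% and 0.132% of all genes) and DESeq2 (1.84% and 1.45%) on the recovered reads also called none. At an unadjusted p under 0.05, where 14.2% of genes passed in either direction, 1 member was higher and 1 lower. The first was Ifi27, an interferon-inducible mitochondrial protein, with a log2 change of 0.49 (SE 0.21, limma adjusted p = 0.335). The other was Usp18, with a log2 change of -0.71 (SE 0.28, limma adjusted p = 0.279). The genotypes overlapped for every tested member, where 1.74% and 2.45% of all genes had separate libraries on the higher and lower side. The median log2 fold change was 0.15 in the type I group, 0.02 in the interferon-gamma group and 0.13 among the others, with 0.00 over all genes. The type I median was -0.04 with edgeR and -0.05 with DESeq2, so no direction is read from it.

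Oasl2 and Ifit2 had the highest normalised read counts of the type I members in skin, summed over the genotype means, with Oas2 close behind Ifit2 and above it in eKO skin. Oasl2 was at 140.0, 508, 267, 126 and 377 in the control libraries and 271, 276, 283, 332 and 215 in the eKO libraries, and Ifit2 at 289, 244, 128, 167 and 284 in the control libraries and 266, 241, 161, 149.8 and 195 in the eKO libraries. The libraries of the genotypes overlapped for both, and their log2 fold changes were 0.15 and -0.10. Tap1 and Iigp1, with the highest mean counts of the interferon-gamma group, also overlapped. Tap1 was at 1354, 1184, 1619, 1101 and 1746 in the control libraries and 1430.3, 1572, 1313, 939 and 1632 in the eKO libraries and Iigp1 at 319, 361, 603, 256 and 515 in the control libraries and 682, 678, 281, 264 and 268 in the eKO libraries. For the 4 transcription factors, log2 fold changes were 0.48 (Irf1), 0.18 (Irf7), -0.07 (Irf9) and -0.02 (Stat2), with SEs of 0.24, 0.29, 0.14 and 0.12. Irf1 was at 483, 358, 386, 219 and 393 in the control libraries and 566, 577, 552, 295 and 566 in the eKO libraries, its only low eKO library being eKO 4.

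Skin control libraries differed widely among themselves in type I genes. Control 2 held the highest value of the 10 libraries in 8 of the 11 type I members, where 12.6% of all genes tested had their highest value there, and in 0 of the 8 tested interferon-gamma members. Control 4 held the lowest value in 8 of 11 type I members, 5 of 8 interferon-gamma members and 13 of 19 others, where 17.5% of all genes had their lowest value there. This was noticed after the values were seen. Control 4 also had the lowest summed leukocyte markers (1793, where control libraries reached 6597 and eKO libraries lay between 5220 and 7055) and the highest summed hair matrix and shaft markers (177631). Their part in the low interferon-stimulated values was not tested. Without control 2 the type I median of skin was 0.56, and without control 4 it was -0.09.

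**Figure D2:**
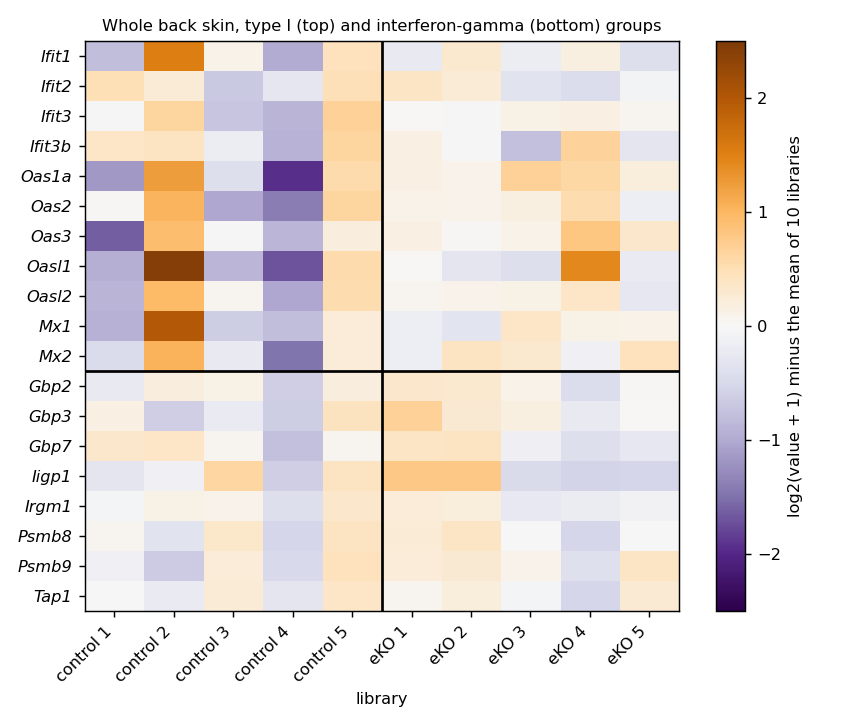
Log2(value + 1) of each type I member (upper block) and interferon-gamma member (lower block) minus its mean over the 10 skin libraries, with control libraries left and eKO libraries right of the black line. Control 2 has the highest value in 8 and control 4 the lowest in 8 of the 11 type I members, and eKO 4 is high for Oasl1.

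The 2 groups were compared in every library as the mean over members of log2(value + 1) minus the control mean of the same table. In eKO HFSC, the type I group stood at 2.04 ± 0.51 (SD, n = 3; 1.61 to 2.60) and the interferon-gamma group at 0.89 ± 0.09 (SD, n = 3). Every eKO library lay above every control library in both groups. The type I value was the larger in log2 units, but its control SD was also larger, at 0.19 against 0.03. The type I value includes members with few or no control reads. In skin the eKO type I group was at 0.19 ± 0.16 (SD, n = 5), within a control spread of 0.89 (SD, n = 5; -1.02 to 1.23), and the interferon-gamma group at 0.08 ± 0.29 with a control SD of 0.30. The other members stood at 0.82 ± 0.21 (SD, n = 3) in eKO HFSC. These values carry no p, because the members were chosen with earlier results known.

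**Figure D3:**
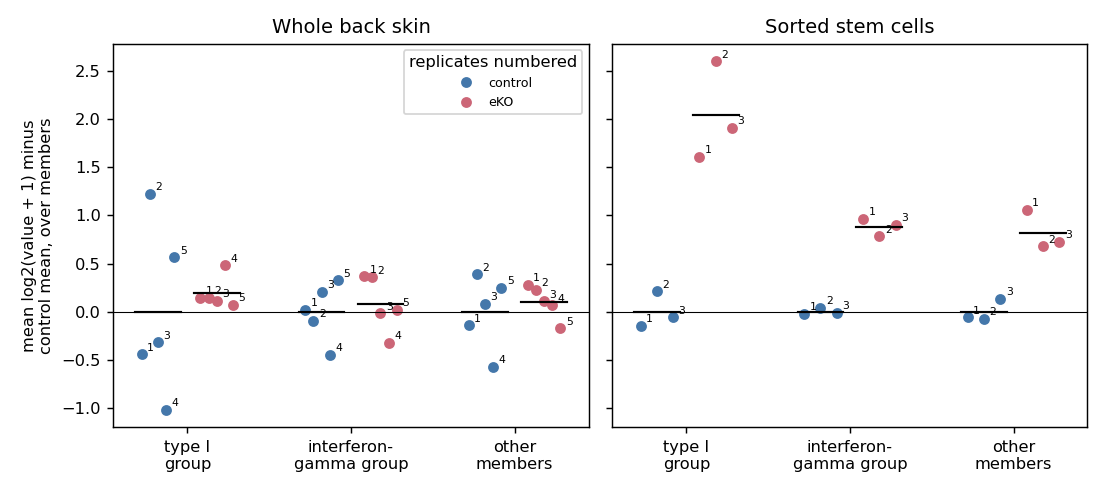
Mean over members of log2(value + 1) minus the control mean, for each library (points numbered by replicate) and group mean (lines), in skin (left) and HFSC (right). In HFSC each eKO point lies above each control point in all 3 member groups, while skin points overlap.

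The balance of the groups can also be read as type I reads per 100 interferon-gamma reads within a library. Single genes weigh heavily in this ratio. Over the control HFSC libraries Ifit1 held 222 of the type I reads, which were 142, 170 and 93 by library. Tap1 held 2043 of the interferon-gamma reads, which were 1489, 1388 and 1395 by library. Control HFSC held 9.54, 12.2 and 6.67 (9.48 ± 2.79, SD, n = 3) and eKO HFSC 12.8, 21.0 and 21.4 (18.4 ± 4.85, SD, n = 3), so the libraries did not overlap, with eKO 1 just above control 2. Skin held 28.0, 76.9, 21.6, 23.4 and 37.5 in control (37.5 ± 22.9, SD, n = 5) and 29.0, 28.3, 36.3, 56.5 and 29.4 in eKO (35.9 ± 12, SD, n = 5). Control 2 and eKO 4 of skin were the high libraries, and the genotypes overlapped. Skin had more type I reads per interferon-gamma read than HFSC in both genotypes, across tables normalised and prepared separately.

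**Figure D4:**
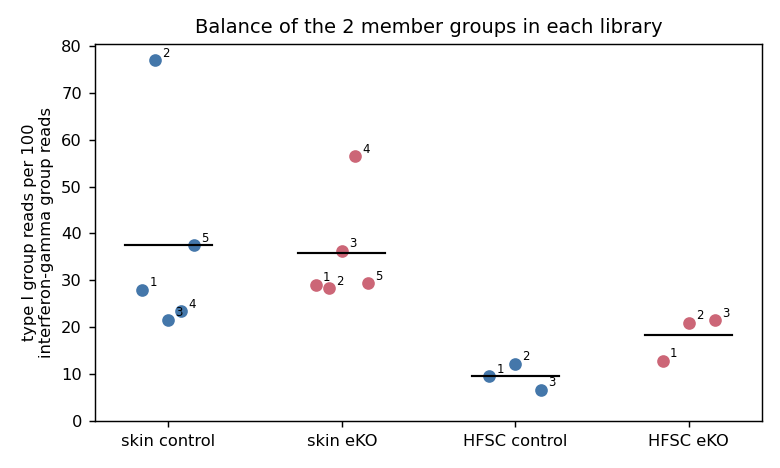
Reads on the 11 type I genes per 100 reads on the 9 interferon-gamma genes in each library, with numbered replicates as points and group means as lines. HFSC control libraries lie at 6.67 to 12.2, HFSC eKO libraries at 12.8 to 21.4 and all skin libraries at 21.6 or higher.

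The genotype effect itself was compared between the tissues as HFSC effect minus skin effect in 1 limma fit over the 13227 genes tested in both tables. Of the 27 members tested, 6 were more positive in HFSC and none more negative, where 3.44% of all genes were more positive and 2.18% more negative. The difference was 3.00 (SE 0.42, limma adjusted p = 3.92e-04) for Rtp4 and 2.75 (SE 0.50, limma adjusted p = 0.00338) for Iigp1. It was 2.83 (SE 0.66, limma adjusted p = 0.0191) for Ifit3, 2.28 (SE 0.53, limma adjusted p = 0.018) for Isg15, 2.14 (SE 0.58, limma adjusted p = 0.0415) for Oasl2 and 0.85 (SE 0.22, limma adjusted p = 0.0289) for Irf9. The fit uses 1 variance per gene for both tables. The SEs of Ifit3 and Isg15 are therefore smaller than those of the HFSC effect alone (0.98 and 0.59), and may be too small. Ifit3 was not called in HFSC itself (limma adjusted p = 0.0507). The contrast also spans the age labels, 8 months for skin and 18 months for HFSC. Ifit3 and Oasl2 belong to the type I group and Iigp1 to the interferon-gamma group. Ifit3 and Isg15 reached the HFSC filter only through the eKO libraries. Rtp4, at 12, 11.6 and 7 in the control HFSC libraries, also needed an eKO library to reach it. Usp18 was more negative in HFSC by -1.96 without passing (limma adjusted p = 0.055). The call of Ifit3 was lost without HFSC control 2 (limma adjusted p = 0.0506) and with a pseudocount of 5 (0.0664). That of Irf9 was lost without skin eKO 1 (0.0518), HFSC control 1 (0.0659), HFSC control 3 (0.0744) or HFSC eKO 2 (0.0583) and with scaling by library size only (0.0516), as limma adjusted p values. That of Oasl2 was lost in 11 of the 16 fits that leave out a library, at limma adjusted p values of 0.0578 to 0.101, and with a pseudocount of 5 (0.0576).

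**Figure D5:**
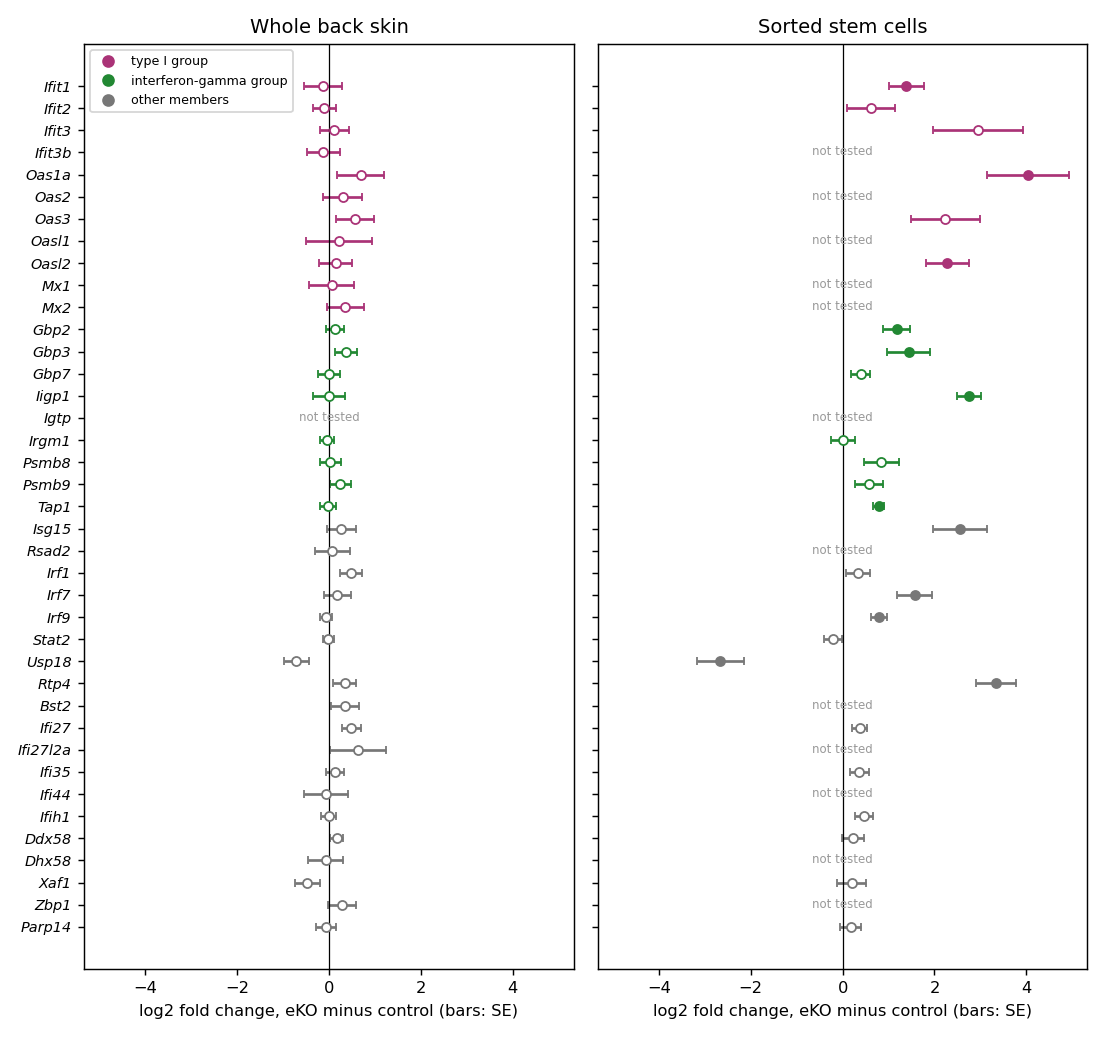
Log2 fold change, eKO minus control, of each member in skin (left) and HFSC (right), with bars as SE, filled points called at an adjusted p under 0.05 and open points not called. Filled points occur in the HFSC panel only, with Usp18 the filled point left of 0.

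The other genes of the pathway were taken from lists of 116 genes, of which 60 were tested in HFSC and 76 in skin. In HFSC 20 of the 60 rose and none fell, where 10.7% of all tested genes rose and 8.74% fell, and in skin none was called (0.229% and 0.145% of all genes). The 20 include Apol9a and Apol9b, which reached the filter only through the eKO libraries. Interferon genes themselves were near 0. In skin only Ifng (12 reads in control and 11 in eKO), Ifna13 (3 and 0), Ifnz (3 and 2), Ifne (1 and 0) and Ifna7 (0 and 2) of the 21 ligands had a read, and in HFSC only Ifna7 had reads, 6 in the eKO libraries. No ligand was tested, so the source of any interferon was not measured here.

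Of the 7 tested receptors and kinases, 2 rose in HFSC, where 10.7% of all genes rose. Ifngr2, the signalling subunit of the interferon-gamma receptor, was at 377, 404 and 393 in the control libraries and 644, 579.9 and 553 in the eKO libraries, a log2 change of 0.59 (SE 0.13, limma adjusted p = 0.0083). Jak1, a kinase common to both receptors, was at 1221, 1060.3 and 931 in the control libraries and 1350.3, 1548 and 1440.2 in the eKO libraries, a log2 change of 0.44 (SE 0.12, limma adjusted p = 0.0213). The remaining subunits did not pass: Ifnar2 had a log2 change of -1.67 (limma adjusted p = 0.136), Ifnar1 -0.18 (0.433), Ifngr1 0.22 (0.224), Ifnlr1 0.17 (0.584) and Jak2 -0.26 (0.223). Tyk2 was untested and Il10rb was listed at 0 in HFSC.

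Of 12 tested transcription factors and inhibitors, 5 rose in HFSC, again against 10.7% of all genes. Nlrc5, the transactivator of class I genes, had a log2 change of 0.81 (SE 0.17, limma adjusted p = 0.00516), and Stat3 a log2 change of 0.31 (SE 0.09, limma adjusted p = 0.0233). Among 11 tested sensing genes 1 rose, a share near the 10.7% of all genes. It was Sting1, which relays cytosolic DNA sensing, with a log2 change of 1.35 (SE 0.36, limma adjusted p = 0.0185). Of 19 tested type I effectors outside the members, 6 rose (against 10.7% of all genes), and the smallest adjusted p values were those of Ly6e (log2 fold change 1.81, limma adjusted p = 2.48e-07), Samd9l (2.63, 2.81e-05) and Sp100 (2.46, 9.88e-05). Of these 6, Apol9a and Apol9b stood at 1.05 to 5.00 in the control libraries, so they had to differ to be tested. Of 11 tested interferon-gamma effectors outside the members, 6 rose (against 10.7% of all genes), and the smallest adjusted p values were those of the class I genes H2-D1 (log2 fold change 1.18, limma adjusted p = 7.90e-07) and H2-K1 (0.70, 5.24e-04) and of Tapbp (0.54, 7.33e-04), which bridges class I molecules to the peptide transporter. Class I genes have near-identical relatives, and reads shared between copies make their values uncertain, as they do for Ifit3 with Ifit3b and for the Gbp genes.

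Between the control groups, member levels were compared gene by gene in RPM, reads scaled to the library total and not to gene length. Tap1 was at 121 ± 24.3 (SD, n = 5) in skin and 103 ± 8.15 (SD, n = 3) in HFSC. All 11 type I members had a higher mean in control skin, 4 of them without a read in control HFSC. For Ifit1 the means were close for their spread, at 12.1 ± 8.88 (SD, n = 5) in skin and 11.2 ± 4.57 (SD, n = 3) in HFSC. Usp18 was among the 7 members that were lower in control skin, at 13.5 ± 0.69 (SD, n = 3) in control HFSC and 2.74 ± 0.62 (SD, n = 5) in control skin. In eKO HFSC it was at 2.22 ± 1.27 (SD, n = 3), close to the 1.70 ± 0.56 (SD, n = 5) of eKO skin. No test was made across the tables, which were prepared and normalised separately. By mean alone, 31 of the 39 members were higher and 7 lower in control skin. Members that adjoin in the RefSeq gene order were Psmb9, Tap1 and Psmb8 on chromosome 17, Ifit2 and Ifit3 on 19, Gbp7 and Gbp3 on 3, Oasl2 and Oasl1 and also Oas2 and Oas3 on 5, and Ifi27l2a and Ifi27 on 12. Adjoining genes did not all share a call, since Tap1 rose while Psmb8 and Psmb9 did not pass.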

How the data were processed

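RNA of whole back skin (5 control and 5 eKO libraries) and of sorted HFSC (3 and 3) had been sequenced. The deposited values are a signal: read counts per gene divided by 1 size factor per library, and whole reads were recovered for all nonzero values within 0.01. Per the submitters' processing notes, GRCm39 was used for both tissues, and featureCounts and DESeq2 are named for skin. The aligner, strand setting, annotation and treatment of shared reads are not given in the sources used here. Skin replicates were numbered in accession order and pair nothing. The HFSC numbers come from titles, and same-numbered libraries did not deviate together (correlations of -0.0602, -0.018 and -0.0256 in deviations from the group means).

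Each table was fitted with limma 3.58.1 (R 4.3.3; trended prior) on log2(value + 1). Genes entered if 5 skin or 3 HFSC libraries reached a value of 10. Benjamini-Hochberg adjustment ran over all genes entered, at a threshold of 0.05. This scale understates changes of low genes. Alternatives used edgeR 4.0.16 and DESeq2 1.42.0 on the recovered reads, other pseudocounts and filters, a replicate block and leaving out libraries. Depth was 8.21 M to 16.4 M reads in skin and 6.43 M to 9.39 M in HFSC. Floors of 3 reads cover counting error in the control group only, and reads carry no molecular identifiers. The fit was tested on simulated data, with 2-fold changes of abundant genes at a fixed spread. That test does not cover low members or genes as variable as the type I group in skin. Symbols were matched by identifier to a name list (94.1% of skin and 91.4% of HFSC gene entries). Members and lists were chosen with earlier results of these data known. Values per library are given for members that passed in any of the 3 fits, for the 2 members with the highest mean in the type I and interferon-gamma groups in each tissue and for 4 transcription factors, and in HFSC also for low members. The values of 1 pathway gene are not reported here.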

Additional observations from a re-analysis of the deposited data

Results flagged for a closer look

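In 6 of the 76 member and group pairs of skin, 1 library stood far from the other 4 (gap to the nearest value over 0.71 of the range), where chance gives about 1 in 20. Oasl1 was at 215 in skin control 2 and at 107.7 in skin eKO 4. In the same control library Mx1 was at 229 and Dhx58 at 69.1. Irf1 was low in skin eKO 4, at 295, and Parp14 low in skin control 4, at 286.

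The genotype effect differed between HFSC and skin, by the interaction test of limma, for 6 members. The HFSC effect minus the skin effect was 2.83 for Ifit3, 2.14 for Oasl2, 2.75 for Iigp1, 2.28 for Isg15, 0.85 for Irf9 and 3.00 for Rtp4. Ifit3 was not called in HFSC itself, and the test uses 1 variance per gene for both tables.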

How the results depend on the processing

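The HFSC count of 11 members that rose ran from 8 (filter at 50) to 13 (edgeR), from 9 to 11 with 1 library left out, and the count that fell stayed at 1. Skin held 0 calls throughout, and the count of 6 members differing between tissues ran from 4 to 9. The same-number pairing of HFSC was not borne out, and not every sample correlated best with its own number; with the replicate block 10 members rose. The HFSC type I median of 2.26 was 1.65 with a pseudocount of 5, 1.83 with the filter at 50 and 3.28 with DESeq2 (2.05 to 2.34 with 1 library left out). The interferon-gamma median of 0.81 was 0.68 with the filter at 50 and 0.67 to 0.90 with 1 library left out. Skin medians ran from -0.09 to 0.56 (type I) and from -0.10 to 0.16 (interferon-gamma) with 1 library left out. Calls of Iigp1, Rtp4, Tap1, Irf9, Oasl2, Isg15, Oas1a and Usp18 in HFSC held in every alternative in which they were tested; that of Gbp3 was lost in 9 of 13, and Ifit3 gained one with a pseudocount of 5, no filter and edgeR. Uncalled skin log2 fold changes turned sign: Ifit2 to 0.076 and Tap1 to 0.068 without the 2 libraries with next to no Y-linked reads, Oasl2 to -0.044 with edgeR and -0.045 with DESeq2, Iigp1 to -0.014 with hair matrix and shaft markers as a covariate, and Stat2 to 0.0045 with library size only. With 1 library left out these ran -0.28 to 0.0096 (Ifit2), -0.11 to 0.10 (Tap1), -0.094 to 0.41 (Oasl2), -0.20 to 0.16 (Iigp1), -0.10 to 0.041 (Stat2), -0.099 to 0.32 (Irf7) and -0.15 to 0.015 (Irf9). The cause was not tested. Why 12 members stayed below the HFSC filter was not tested.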
